A study of Mus musculus with 20 samples.

Results

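Phosphatidylserine receptors and bridging molecules other than BAI1 were followed in the mouse cochlea through 10 listed genes, out of 24411 genes in each deposited table: the receptors *Mertk*, *Axl*, *Tyro3*, *Stab1*, *Megf10* and *Lrp1*, the soluble proteins *Gas6*, *Pros1* and *Mfge8*, and the adaptor *Gulp1*. The list was named by gene and not by a rule on measured values, but it was chosen with earlier results of these data known. All 10 members were tested in each of the 7 comparisons below. Bulk RNA-seq was made from the apical coil of the cochlea (sensory epithelium and spiral ganglion neurons, SGNs) of *Bai1tm2b/+* (control, heterozygous) and littermate *Bai1tm2b/tm2b* (homozygous) mice of both sexes, on a C57BL/6N background that carries *Cdh23ahl*. The tm2b allele lacks exons 3 and 4 of *Adgrb1*, the gene of BAI1, and carries a lacZ cassette. It removes the long isoform and leaves the short form, and the controls also carry 1 tm2b allele. Each library came from a pool of 4 mice: 3 pools per genotype at postnatal day 22 (P22, after hearing onset), and at P7 (before hearing onset) replicates 5 to 7 per genotype as estimated counts and replicates 1 to 4 per genotype as rounded TPM (transcript abundance scaled to transcript length and library size).

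Dying cells, and synapses or outer segments that are to be removed, expose the lipid phosphatidylserine on their surface. Phagocytes bind it directly, as BAI1 does through its thrombospondin repeats and Stabilin-1 does on macrophages and endothelium, or through soluble bridges. GAS6 and protein S (*Pros1*) link the lipid to the TAM receptor tyrosine kinases TYRO3, AXL and MERTK, and MFG-E8 links it to integrins. MEGF10 and LRP1 are large scavenger-type receptors that act with the adaptor GULP1, and in the nervous system glia use such receptors to clear synapses and debris. With the long form of BAI1 missing in the homozygotes, the comparison asks whether the other members were at another level.

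The proximal promoters of 3 members are shown because these 3 had the largest differences between P7 and P22, *Gas6* higher and *Axl* and *Stab1* lower at P22. Each run covers 250 bases before to 50 bases after the start of the gene in RefSeq (GRCm38.p6, the assembly of mm10), 5′ to 3′ on the gene's own strand, the minus strand in all 3, with the letters GGGCGG on either strand (the GC box) in capitals.
Gas6, chr8:13494486-13494785: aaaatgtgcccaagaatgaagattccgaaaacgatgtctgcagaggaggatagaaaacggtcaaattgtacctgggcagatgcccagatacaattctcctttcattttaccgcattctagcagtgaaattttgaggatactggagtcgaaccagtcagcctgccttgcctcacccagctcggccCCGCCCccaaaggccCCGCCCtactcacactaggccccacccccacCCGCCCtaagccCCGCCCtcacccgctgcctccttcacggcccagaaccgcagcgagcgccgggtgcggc
Axl, chr7:25788684-25788983: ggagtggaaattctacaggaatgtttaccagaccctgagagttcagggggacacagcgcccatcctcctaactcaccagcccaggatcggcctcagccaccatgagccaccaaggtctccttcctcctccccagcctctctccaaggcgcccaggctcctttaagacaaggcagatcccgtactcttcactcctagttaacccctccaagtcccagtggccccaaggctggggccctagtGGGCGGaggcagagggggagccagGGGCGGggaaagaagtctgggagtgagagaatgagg
Stab1, chr14:31168592-31168891: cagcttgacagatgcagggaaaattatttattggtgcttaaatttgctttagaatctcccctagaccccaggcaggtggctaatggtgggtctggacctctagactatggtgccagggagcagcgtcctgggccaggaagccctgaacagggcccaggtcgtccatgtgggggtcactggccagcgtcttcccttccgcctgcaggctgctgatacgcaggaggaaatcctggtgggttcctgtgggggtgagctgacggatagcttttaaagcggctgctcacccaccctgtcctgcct
A GC box stood in 8 of the 9 member promoters found in the table, against 35.9% of 27025 mouse promoters of the same length. *Gas6* held 4 of them, *Axl* held 2 and *Stab1* held 0. In GRCm38, *Gas6* spans chr8:13465374-13494490, *Axl* chr7:25757273-25788705 and *Stab1* chr14:31139013-31168641, and *Tyro3* (chr2:119797733-119818104) and *Lrp1* (chr10:127538161-127621148) are the other members with a genotype call below. All are protein-coding genes, and the counts cover their exons. The letters CCAAT (either strand) were in 1 of the 9, that of *Stab1*, against 37.9% of all promoters, and TATAAA and CACGTG were in 0 of the 9, against 14.2% and 7.24%. The 3 sequences were 58.3%, 60.3% and 57.3% G and C in the order shown, where the median promoter was 52.7%.

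The targeted gene was read first. *Adgrb1* was measured in CPM, counts scaled to library size, and stood at 154, 152 and 167 in the heterozygous P22 pools and at 103, 100 and 105 CPM in the homozygous ones. The homozygous pools were all lower, by a log2 fold change of -0.61 (SE 0.0585; edgeR quasi-likelihood test, adjusted p = 0.000602). In the P7 count libraries *Adgrb1* was 32.1, 56.4 and 36 CPM in heterozygotes and 25.9, 21.6 and 31.2 CPM in homozygotes, without overlap (log2 fold change -0.64, SE 0.227, edgeR adjusted p = 0.894). In P7 replicates 1 to 4 it was 10, 12, 8 and 7 TPM in the pools labelled heterozygous and 9, 9, 10 and 12 TPM in those labelled homozygous, so that the groups overlapped (log2 fold change 0.01, 95% confidence interval -0.27 to 0.30, limma adjusted p = 0.952). These gene totals also count the short isoform, which the allele leaves, and exon-level reads, on which the deletion would show, were not analysed here.

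The libraries in counts held 35725985 to 40350413 estimated counts at P22 and 31108551 to 58807173 at P7, and the number behind the rounded TPM is unknown. Defining markers of SGNs, glia, hair cells, supporting cells and macrophages were above 0 in every library in counts. Some pools stood apart in markers of other cells. Neutrophil markers summed to 60.9 and 53.4 CPM in homozygous P22 replicates 1 and 2 and to at most 18 CPM in the other 4 P22 pools, and to 51.2 CPM in homozygous P7 replicate 5. The brain neuron genes *Neurod2*, *Neurod6* and *Sst* (chosen after their values were seen) summed to 54 and 45.7 CPM in homozygous P7 replicates 6 and 7 and to at most 7.14 CPM in the other P7 count pools. Stria and melanocyte markers summed to 602 CPM in heterozygous P22 replicate 2 against at most 262 CPM in the other P22 pools, and to 383 TPM in heterozygous P7 replicate 3 against at most 171 TPM in the other 7 pools of replicates 1 to 4.

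At P22, *Tyro3* was 1.22-fold higher and *Gas6* was 0.832-fold of control in homozygotes, and no other member passed the test. Passing means an adjusted p under 0.05 over all 15443 genes tested. Of all genes, 5.04% passed as higher and 7.28% as lower, so 1 of 10 members in each direction lay near the background. Over all genes the calls were 779 higher and 1125 lower, but 1235 and 726 with library totals in place of TMM scaling and 11536 and 75 when scaled to SGN markers. None of the 10 members met the study's fuller thresholds (adjusted p under 0.05, log2 fold change beyond 0.5, SE under 0.5), which 1.74% of all genes met as higher and 1.41% as lower. The fitted log2 fold change was positive for 9 of the 10 members, with a median of 0.16 against 0.01 over all genes, and 6 members had an unadjusted p under 0.05, as had 4431 of the 15443 genes.

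**Figure D1:**
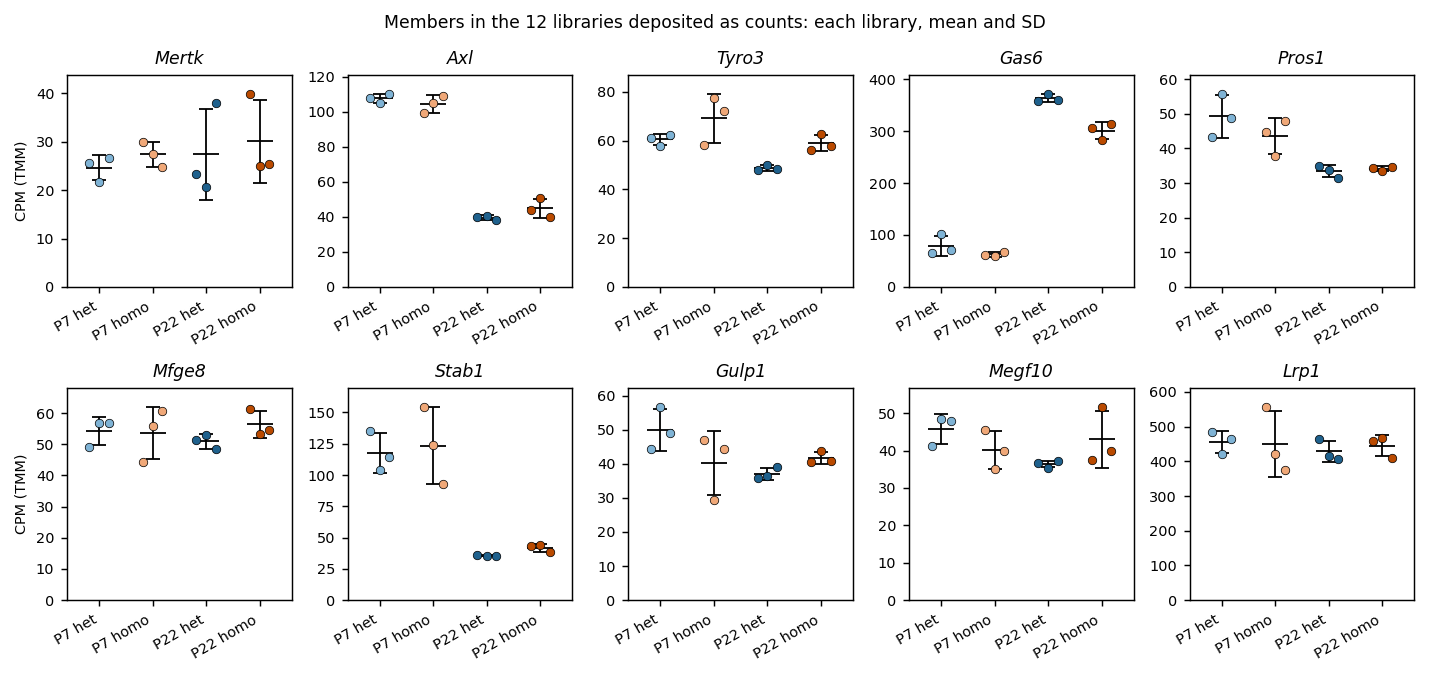
Level of each member (CPM, vertical axis from 0) in every pool of the 12 libraries in counts, by age and genotype (horizontal axis). Points are pools, the long dash is the mean and bars are the SD over 3 pools; *Gas6* sits at 59.5 to 101 CPM at P7 and 283 to 372 CPM at P22, while *Axl* and *Stab1* are lower at P22 in both genotypes.

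Among the TAM receptors, *Tyro3*, which is known as the TAM receptor most used by neurons, stood at 48, 50.2 and 48.3 CPM in heterozygotes and at 56.3, 62.9 and 57.9 CPM in homozygotes. Every homozygous pool lay above every heterozygous one. The log2 fold change was 0.28 (SE 0.0647, edgeR adjusted p = 0.0204). The call ended without heterozygous replicate 1 (adjusted p = 0.0926), heterozygous replicate 3 (0.0567), homozygous replicate 2 (0.0612) or homozygous replicate 3 (0.0517), and the log2 fold change stayed between 0.24 and 0.32 whichever pool was left out. *Axl*, the TAM receptor that binds GAS6 most tightly, was at 40, 40.6 and 37.9 CPM against 44, 50.6 and 40 CPM, and the groups overlapped (log2 fold change 0.19, SE 0.0864, edgeR adjusted p = 0.169). *Mertk*, the receptor of macrophages and retinal pigment epithelium, was the member that varied most between pools of a group. It was at 23.4, 20.7 and 38 CPM in heterozygotes and 39.9, 24.9 and 25.4 CPM in homozygotes, with a high pool in each genotype. Its interval, -0.36 to 0.64 around a log2 fold change of 0.14 (edgeR adjusted p = 0.732), was the widest of the 10, and its sign turned to -0.11 without homozygous replicate 1 and to -0.03 without heterozygous replicate 2.

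*Gas6*, the ligand of all 3 TAM receptors, was at 358, 372 and 360 CPM in heterozygous and 307, 283 and 313 CPM in homozygous pools at P22. It was the only member with every homozygous pool below every heterozygous one, as were 18.8% of all genes. The log2 fold change was -0.26 (SE 0.0575, edgeR adjusted p = 0.016), and only leaving out heterozygous replicate 1 ended the call (adjusted p = 0.068). SGN markers were lower in the same pools: 6 of 9 passed as lower and 0 as higher, with a median of -0.43, and their summed level was 14900 to 17000 CPM in heterozygotes and 10900 to 12400 CPM in homozygotes. Scaled to those summed neuron counts, the log2 fold change of *Gas6* was 0.18 (edgeR adjusted p = 0.0575) and the median of all genes moved to 0.46. This scaling shifts all genes of a library together, so the place of *Gas6* below that median restates the first result. The part of SGN markers in the *Gas6* value was not tested. In bulk tissue, fewer cells of a type and less RNA per cell cannot be told apart. *Pros1*, which serves TYRO3 and MERTK and is also an anticoagulant cofactor, was at 34.9, 33.9 and 31.5 CPM against 34.4, 33.4 and 34.7 CPM, and the groups overlapped (log2 fold change 0.04, interval -0.11 to 0.19). *Mfge8* was at 51.5, 53 and 48.4 CPM against 61.4, 53.2 and 54.7 CPM, with all homozygous pools above (log2 fold change 0.15, SE 0.0719, edgeR adjusted p = 0.186).

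*Stab1*, a marker of resident macrophages and sinusoidal endothelium, was at 36.1, 35.5 and 35.4 CPM in heterozygotes and 43.3, 43.8 and 38.4 CPM in homozygotes. The groups did not overlap, and the log2 fold change of 0.24 (SE 0.071) had an edgeR adjusted p = 0.0532. It passed with DESeq2 (0.23, adjusted p = 0.0419) and, in edgeR, without homozygous replicate 3 (0.29, 0.0392). With library totals in edgeR it also passed (0.30, 0.0239), where the median of all genes moved to 0.08. Without any other single pool it did not pass, at an edgeR adjusted p of up to 0.137. Its value was 0.11 without homozygous replicates 1 and 2, which leaves the lowest homozygous pool alone in its arm. Macrophage markers were higher in the fitted value for 13 of 13, with 1 past the test (*Cx3cr1*, log2 fold change 0.48, edgeR adjusted p = 0.049) and a median of 0.23, and their summed level was 282 to 324 CPM in heterozygotes and 314 to 376 CPM in homozygotes. None of the 13 was at 0 in any library. Endothelial markers summed to 214 to 265 CPM in heterozygotes and 201 to 249 CPM in homozygotes, and the groups overlapped. The part of either list in the *Stab1* value was not tested. *Megf10*, the mammalian relative of the fly engulfment receptor Draper, was at 36.7, 35.4 and 37.1 CPM against 37.5, 51.6 and 39.8 CPM (log2 fold change 0.25, SE 0.108, edgeR adjusted p = 0.161). The groups did not overlap, but 1 homozygous pool lay far above the other two. *Gulp1* was at 35.8, 36.3 and 39.1 CPM against 40.5, 43.6 and 40.7 CPM, without overlap (log2 fold change 0.17, SE 0.0691, edgeR adjusted p = 0.125). *Lrp1*, the receptor that takes up calreticulin-coated and C1q-coated cells, was at 464, 416 and 406 CPM against 458, 466 and 410 CPM and overlapped (log2 fold change 0.06, interval -0.10 to 0.22).

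In all, 5 members (*Tyro3*, *Mfge8*, *Stab1*, *Gulp1* and *Megf10*) had every homozygous P22 pool above every heterozygous one, where 15.0% of all genes did. The 5 differences were between 0.15 and 0.28 on the log2 scale, and only that of *Tyro3* passed the test. Markers of the sensory epithelium were also higher in every homozygous P22 pool. Hair cell markers summed to 427 to 456 CPM in heterozygotes and 541 to 633 CPM in homozygotes (4 of 9 past the test as higher), and supporting cell markers to 1140 to 1270 CPM and 1360 to 1440 CPM (5 of 9 higher and 1 lower). Their part in the members' values was not tested. Without homozygous replicates 1 and 2, the pools with neutrophil markers, *Tyro3* was at 0.25 (edgeR adjusted p = 0.193) and *Gas6* at -0.21 (adjusted p = 0.218), and 0 members passed. This sets 3 heterozygous pools against 1 homozygous pool that is assumed to vary as they do, so the lost calls say nothing of stability. Over all 15850 genes tested, 16 then passed as higher and 15 as lower.

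**Figure D2:**
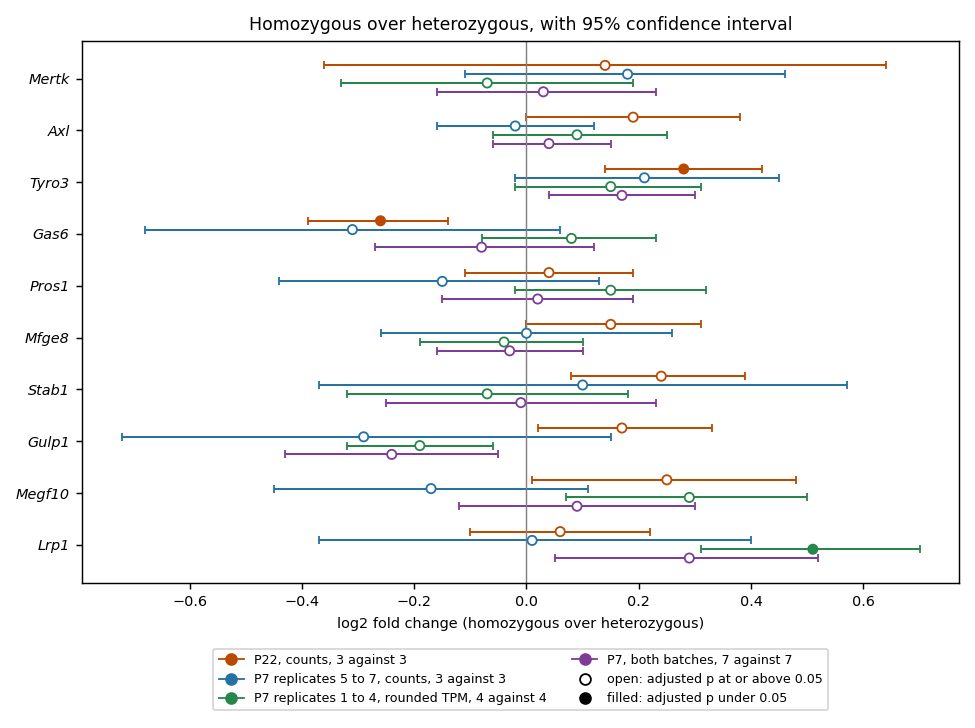
Log2 fold change of homozygous over heterozygous pools (horizontal axis) for each member (vertical axis) with its 95% confidence interval, in the 4 genotype comparisons; filled points passed the test. Of the 40 points, 3 are filled: *Tyro3* (0.28) and *Gas6* (-0.26) at P22, and *Lrp1* (0.51) in P7 replicates 1 to 4.

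At P7, in the libraries in counts, no member differed between the genotypes beyond the spread of the pools. The edgeR test passed 0 of the 10 members (lowest adjusted p = 0.894), 0 had an unadjusted p under 0.05, and DESeq2 also passed 0. Of all 16026 genes, 0 passed (0%), 763 had an unadjusted p under 0.05, and DESeq2 passed 56 as higher and 4 as lower. All 10 members overlapped between the groups, where 4.91% of all genes had every homozygous pool above and 5.83% every homozygous pool below. Of the members, 5 log2 fold changes were positive and 5 were not, and their median was -0.01.

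*Tyro3* was at 61.3, 58 and 62.3 CPM in the heterozygous and 58.1, 77.4 and 72.2 CPM in the homozygous P7 pools. The high values were those of the pools with brain neuron genes, replicates 6 and 7. With all pools the log2 fold change was 0.21 (interval -0.02 to 0.45), and without these it was 0.00. That value had to lie near 0, as the 1 homozygous pool left (58.1 CPM) was within the heterozygous range. The part of brain neuron genes in the *Tyro3* value was not tested. *Gas6* was at 65.2, 101 and 70.5 CPM against 60.7, 59.5 and 67.1 CPM. Its single high pool, heterozygous replicate 6, also had the highest summed SGN markers, 2520 CPM against 952 to 1450 CPM in the other 5, and the log2 fold change was -0.31 with all pools (interval -0.68 to 0.06) and -0.10 without it. *Gulp1* was at 44.4, 56.6 and 49 CPM against 46.9, 29.4 and 44.2 CPM (log2 fold change -0.29, interval -0.72 to 0.15). Its lowest and highest pools, homozygous and heterozygous replicate 6, were also the lowest and highest in Schwann and satellite glia markers, at 6160 and 17200 CPM summed.

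The remaining receptors and ligands lay closer together. *Mertk* was at 25.6, 21.7 and 26.7 CPM against 29.9, 27.5 and 24.7 CPM (log2 fold change 0.18), and *Axl* was at 108, 105 and 110 CPM against 99, 105 and 109 CPM (-0.02, interval -0.16 to 0.12), the tightest interval of the set. *Pros1* was at 43.4, 55.8 and 48.8 CPM against 44.9, 37.9 and 47.9 CPM (-0.15), and *Mfge8* at 49.2, 56.9 and 56.8 CPM against 44.4, 55.9 and 60.5 CPM (0.00, interval -0.26 to 0.26). None of these 4 separated the genotypes. *Stab1* ran from 104 to 135 CPM in heterozygotes and from 92.7 to 154 CPM in homozygotes (0.10), *Megf10* from 41.2 to 48.3 CPM and from 35.1 to 45.4 CPM (-0.17), and *Lrp1* from 420 to 483 CPM and from 375 to 556 CPM (0.01, interval -0.37 to 0.40). In *Stab1* and *Lrp1* the homozygous pools enclosed the whole heterozygous range.

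**Figure D3:**
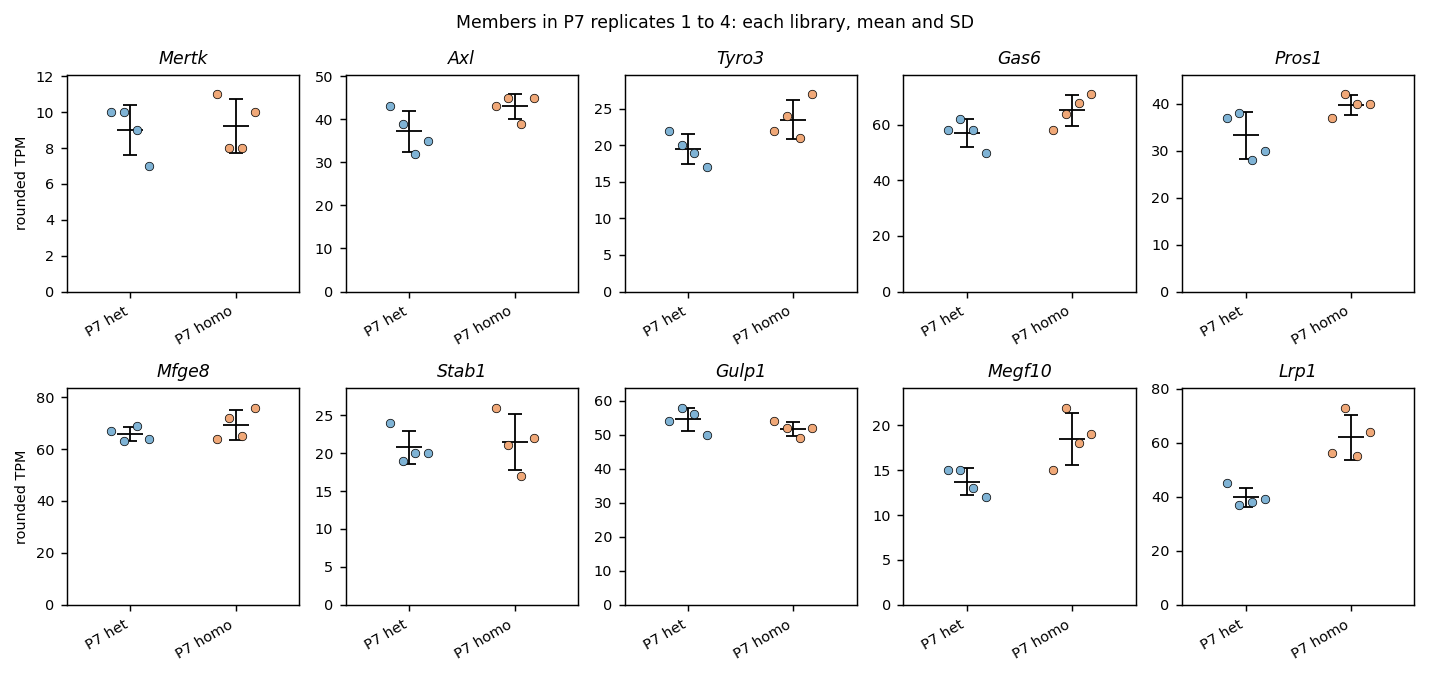
Level of each member (rounded TPM, vertical axis from 0) in the 4 pools labelled heterozygous and the 4 labelled homozygous of P7 replicates 1 to 4 (horizontal axis). Points are pools, the long dash is the mean and bars are the SD; only for *Lrp1* do the groups not overlap, at 37 to 45 TPM and 55 to 73 TPM.

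In P7 replicates 1 to 4, *Lrp1* was the only member to pass. It was at 45, 37, 38 and 39 TPM in the pools labelled heterozygous and 56, 73, 55 and 64 TPM in those labelled homozygous, where *Adgrb1* itself did not separate the labels. Every homozygous pool lay above every heterozygous one, as for 12.2% of all genes tested there, while 2.62% had every homozygous pool below. Fibroblast markers separated the same pools, at 2640 to 3490 TPM summed in those labelled heterozygous and 3630 to 4040 TPM in those labelled homozygous, and their part in the *Lrp1* value was not tested. The log2 fold change on the log2(TPM + 1) scale was 0.51 (SE 0.0879, limma adjusted p = 0.0448). The value was within the study's fuller thresholds, which were set for a count test. The share of all genes within them was not counted here. Of all 11740 genes, 4.23% passed as higher and 3.28% as lower. The lowest adjusted p of any gene was 0.0448, a value that *Lrp1* shared with other genes. The call was lost without any of 6 of the 8 pools, all but heterozygous replicate 1 and homozygous replicate 1 (adjusted p = 0.0109 to 0.125 over the 8, log2 fold change 0.43 to 0.55).

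*Lrp1* has the longest transcript of the members, 14888 nt. In these 8 libraries the genotype difference of a gene ran with its transcript length (Spearman's rho 0.602 over 11343 genes; genes are no independent replicates). The 204 genes within 0.5 log2 units of that length had a median log2 fold change of 0.24 (quartiles 0.11 and 0.38), and 20 of them lay above *Lrp1*. With a length trend taken out of each library (a setting added after the data were seen), *Lrp1* was at 0.26 (limma adjusted p = 0.117) and 0 members and 0 genes passed. In the P7 count libraries the same rho was 0.0599 and the genes of that length had a median of 0.05. At P22 the rho was -0.222 and the genes of that length had a median of -0.08. Without scaling between libraries, which moved the median of all genes to 0.12 and the calls over all genes from 497 higher and 385 lower to 1407 and 132, *Lrp1* was at 0.62 (limma adjusted p = 0.0344) and *Megf10* also passed (0.40, adjusted p = 0.0495).

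**Figure D4:**
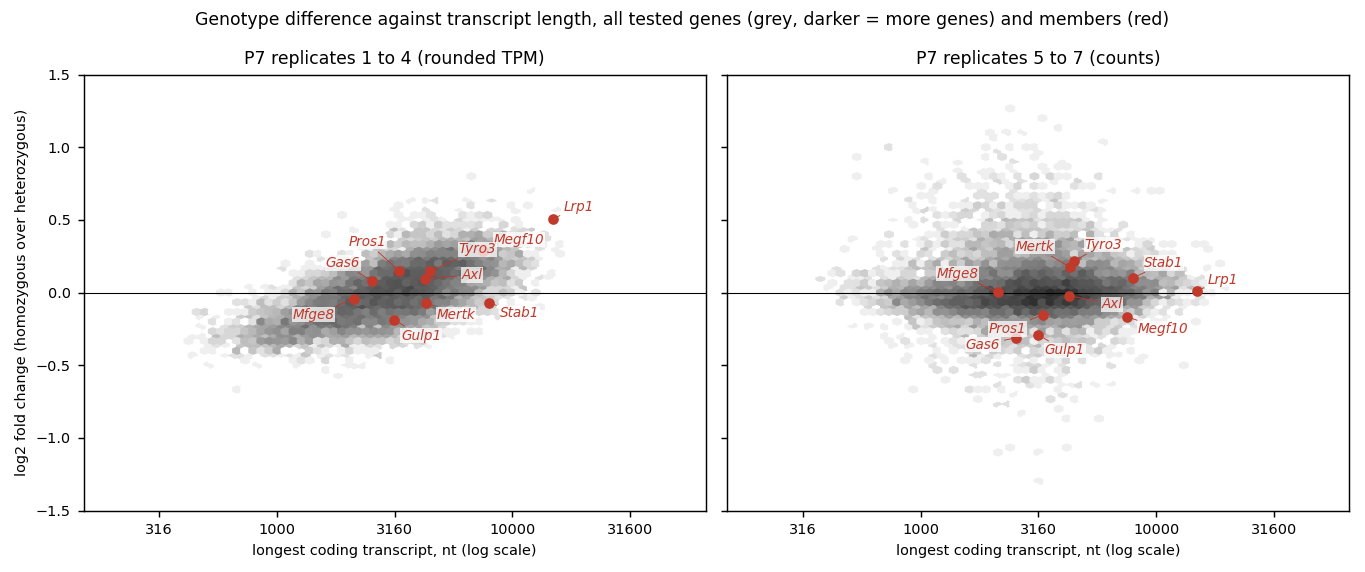
Log2 fold change of homozygous over heterozygous pools (vertical axis) against the length of the longest coding transcript (horizontal axis, log scale) for all tested genes with a length (grey, darker where more genes lie) and the 10 members (red), in P7 replicates 1 to 4 (left, 11343 genes) and replicates 5 to 7 (right, 15402 genes). The cloud slopes upward with length on the left, where *Lrp1* sits at 0.51 at its right end, and is level on the right, where *Lrp1* sits at 0.01; 3 and 79 genes lie beyond the vertical axis.

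Of the other members in replicates 1 to 4, *Megf10* was at 15, 15, 13 and 12 TPM in heterozygotes and 15, 22, 18 and 19 TPM in homozygotes, which met at 15 TPM (log2 fold change 0.29, SE 0.0973, limma adjusted p = 0.0762). Without homozygous replicate 1 it passed, at 0.37 (limma adjusted p = 0.0189). *Gulp1* was at 54, 58, 56 and 50 TPM against 54, 52, 49 and 52 TPM and overlapped (-0.19, SE 0.0589, limma adjusted p = 0.0651), and it too passed without that pool (-0.22, adjusted p = 0.034). *Tyro3*, at 22, 20, 19 and 17 TPM against 22, 24, 21 and 27 TPM, had a log2 fold change of 0.15 (interval -0.02 to 0.31), and *Gas6*, at 58, 62, 58 and 50 TPM against 58, 64, 68 and 71 TPM, one of 0.08 (-0.08 to 0.23). The last 5 members, *Mertk* (-0.07), *Axl* (0.09), *Pros1* (0.15), *Mfge8* (-0.04) and *Stab1* (-0.07), had adjusted p of 0.2 to 0.711 in limma. In the same libraries macrophage markers were lower in the fitted value for 11 of 12 tested, 2 past the test. SGN markers had a median of 0.38 with 1 of 8 past the test as higher. Both lists had the opposite direction at P22. Genotype differences ran with transcript length in these libraries, and the part of length in either list was not tested.

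With both P7 batches in a single limma fit and batch as a term, 0 of 10 members passed, as did 0 of 11441 genes (0%). Unadjusted p was under 0.05 for 3 members and 2673 genes. The 3 were *Lrp1* (log2 fold change 0.29, interval 0.05 to 0.52, adjusted p = 0.156), *Gulp1* (-0.24, -0.43 to -0.05, 0.153) and *Tyro3* (0.17, 0.04 to 0.30, 0.136). The separate fits of replicates 5 to 7 and 1 to 4 gave 0.21 and 0.15 for *Tyro3* and -0.29 and -0.19 for *Gulp1*. For *Lrp1* they gave 0.01 and 0.51, and for *Gas6* -0.31 and 0.08. In the single fit the genotype difference also ran with transcript length (Spearman's rho 0.585). Its 203 genes near the length of *Lrp1* had a median of 0.16, and 16 of them lay above *Lrp1*. The batch and the unit of the values coincide here.

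The members' levels were compared with each other only per transcript length. In the heterozygous pools of P7 replicates 1 to 4 the order by mean TPM was *Mfge8* (65.8), *Gas6* (57), *Gulp1* (54.5), *Lrp1* (39.8), *Axl* (37.2), *Pros1* (33.2), *Stab1* (20.8), *Tyro3* (19.5), *Megf10* (13.8) and *Mertk* (9). The ranges of the pools overlapped between *Gas6* and *Gulp1*, between *Lrp1* and *Axl*, between *Axl* and *Pros1*, and between *Stab1* and *Tyro3*, so those neighbours did not differ beyond their spread. In the heterozygous P22 pools, as CPM per kb of the longest coding transcript, *Gas6* stood at 143 ± 2.99 (SD, n = 3), followed by *Lrp1* at 28.8 ± 2.09 and *Mfge8* at 24 ± 1.09. *Gulp1* (11.8), *Tyro3* (10.9), *Pros1* (10.1) and *Axl* (9.26) came next, and *Mertk* (6.37), *Megf10* (4.84) and *Stab1* (4.46) were lowest. The pools of *Mertk* ran from 4.82 to 8.84 and overlapped those of *Megf10*, and no other neighbours in this order overlapped. At P7 the same measure put *Gas6* at 30.9 ± 7.51, *Lrp1* at 30.6 ± 2.14, *Mfge8* at 25.6 ± 2.09 and *Axl* at 25.3 ± 0.536. There the pools of *Gas6* (25.6 to 39.5) overlapped those of *Lrp1*, *Mfge8* and *Axl*. *Gulp1* was at 15.9 by this measure. It and *Mfge8* were thus below *Lrp1*, while the mean TPM of replicates 1 to 4 put both above it. The order at P7 therefore differed between the measures, which come from different pools, and the order at P22 rests on the longest transcript alone.

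Between P7 and P22 most of the group fell in heterozygotes while *Gas6* rose. The labels give the P22 pools as a batch of their own, so age and batch cannot be told apart. In heterozygotes, 1 of 10 members was higher at P22 and 6 were lower past the test, where 34.6% of all 16314 genes were higher and 38.2% lower. In homozygotes, 1 member was higher and 4 were lower, against 35.0% and 36.8% of all genes. The members' median log2 fold change was -0.32 in heterozygotes and 0.02 in homozygotes, against -0.06 and -0.04 over all genes.

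*Gas6* rose from 65.2, 101 and 70.5 CPM to 358, 372 and 360 CPM in heterozygotes, a log2 fold change of 2.20 (SE 0.136, 4.61-fold, edgeR adjusted p = 2.47e-08), and by 2.27 in homozygotes (SE 0.136, 4.82-fold, adjusted p = 2.57e-08). The ages were widely separated in both genotypes. SGN markers rose over the same ages, 9 of 9 in each genotype, with medians of 2.88 and 2.78. Schwann and satellite glia markers summed to 10300 to 17200 CPM at P7 and 22100 to 23400 CPM at P22 in heterozygotes. In homozygotes they summed to 6160 to 12200 CPM and 23100 to 27100 CPM. The part of either list in the rise of *Gas6* was not tested. The receptor *Axl* moved the other way, from 105 to 110 CPM at P7 to 37.9 to 40.6 CPM at P22 in heterozygotes. Its log2 fold change was -1.45 (SE 0.0806, edgeR adjusted p = 1.14e-08), and in homozygotes -1.22 (SE 0.0799, adjusted p = 5.05e-08). Fibroblast markers fell over the same ages, 5 of 5 in each genotype with medians of -1.89 and -1.69, from 5550 to 6330 CPM summed to 1540 to 1910 CPM in heterozygotes. Supporting cell markers went from 6210 to 7990 CPM to 1140 to 1270 CPM there, with 7 of 9 lower and 2 higher. The part of either list in the fall of *Axl* was not tested. *Pros1*, the other TAM ligand, fell by 0.56 on the log2 scale in heterozygotes (edgeR adjusted p = 0.000276) and by 0.35 in homozygotes (0.00746).

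*Tyro3* fell by 0.31 in heterozygotes (SE 0.0924, edgeR adjusted p = 0.00903) and by 0.23 in homozygotes (SE 0.0921, adjusted p = 0.0398). The second call was lost without any of 9 of the 12 pools (adjusted p = 0.0502 to 0.187), all but heterozygous P7 replicate 6, homozygous P7 replicate 5 and homozygous P22 replicate 2. Without homozygous P7 replicates 6 and 7, the pools with brain neuron genes, the value was 0.03. Only homozygous P7 replicate 5 is then left in that arm, and edgeR's adjusted p of 0.783 assumes that it varies like the other groups. *Mertk* did not pass in either genotype (0.15 and 0.13, intervals -0.33 to 0.63 and -0.34 to 0.61), and neither did *Mfge8* (-0.09 and 0.07) nor *Lrp1* (-0.09 and -0.02). Without the same 2 pools, *Mfge8* (0.35, adjusted p = 0.0199) and *Lrp1* (-0.32, adjusted p = 0.0332) were past the threshold of edgeR in homozygotes, again with that lone pool as the whole P7 arm, so these are values of 1 pool rather than of replicates.

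*Stab1* fell from 104 to 135 CPM at P7 to 35.4 to 36.1 CPM at P22 in heterozygotes, the lowest log2 fold change of the members at -1.72 (SE 0.154, edgeR adjusted p = 5.51e-07), and by 1.56 in homozygotes (SE 0.152, adjusted p = 1.38e-06). Macrophage markers were lower at P22 too, 9 of 13 in heterozygotes and 8 of 13 in homozygotes against 1 higher in each, with medians of -0.91 and -0.65, and endothelial markers were 3 higher and 3 lower in heterozygotes. The part of either list in the fall of *Stab1* was not tested. *Gulp1* and *Megf10* fell by 0.43 (SE 0.145, edgeR adjusted p = 0.0166) and 0.33 (SE 0.123, adjusted p = 0.0268) in heterozygotes, and were at 0.05 and 0.10 in homozygotes without passing. The heterozygous calls were not stable: that of *Gulp1* was lost without heterozygous P7 replicate 6 (adjusted p = 0.0705) or P22 replicate 1 (0.0516), and that of *Megf10* without heterozygous P7 replicate 6 (0.0769) or 7 (0.0809) or P22 replicate 1 (0.0572), 2 (0.0726) or 3 (0.0513).

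**Figure D5:**
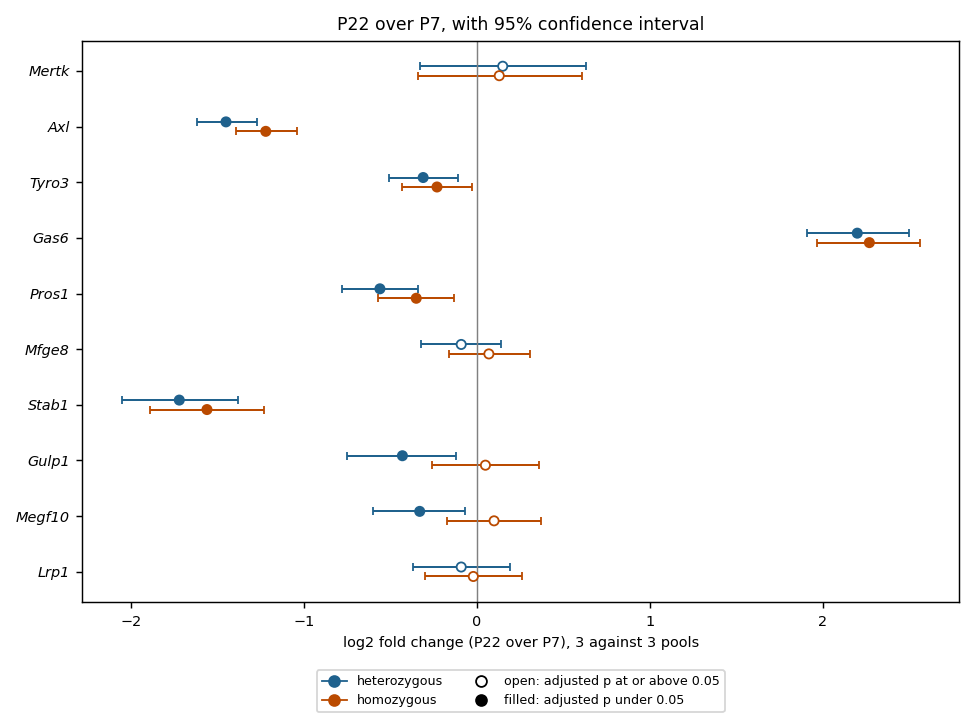
Log2 fold change of P22 over P7 (horizontal axis) for each member (vertical axis) with its 95% confidence interval, in heterozygous and homozygous pools (3 against 3 each); filled points passed the test. *Gas6* lies at 2.20 and 2.27, *Axl* and *Stab1* lie between -1.22 and -1.72, and the 2 intervals of each member overlap.

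The difference between those age changes was tested as the interaction of genotype and age. In edgeR, 0 of 10 members passed (lowest adjusted p = 0.412), and 0 passed in DESeq2. Of all genes, 0.0306% passed in edgeR. An unadjusted p under 0.05 was found for 2 members and for 1666 genes. The 2 were *Megf10* (0.43, interval 0.06 to 0.81, edgeR adjusted p = 0.412) and *Gulp1* (0.48, interval 0.04 to 0.93, edgeR adjusted p = 0.441). The estimate was positive for 9 of 10 members, with a median of 0.16 against 0.02 over all genes. The fall of *Gulp1* and *Megf10* was past the test in heterozygotes and not in homozygotes, but the difference between the genotypes was not. For *Gas6* the interaction was 0.06 with an interval of -0.34 to 0.46.

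The rest of the pathway was read from lists of genes with related roles. The P22 counts of all lists below stand against the 5.04% of all genes that passed as higher and the 7.28% that passed as lower. Of 19 other engulfment receptors, 14 were tested at P22 and 1 passed: *Trem2*, a lipid-sensing receptor of microglia and macrophages, at 4.2, 4.65 and 4.08 CPM against 7.4, 6.63 and 6.56 CPM (log2 fold change 0.68, SE 0.139, edgeR adjusted p = 0.0128). The list's median was 0.14. Of 13 other bridging molecules and opsonins, 1 was higher and 1 lower at P22. *Lgals3*, the galectin that bridges to MERTK, was at 6.14, 3.46 and 3.73 CPM against 9.09, 9.68 and 7.67 CPM (log2 fold change 1.00, SE 0.21, edgeR adjusted p = 0.0143). *Edil3*, an MFG-E8 relative that links phosphatidylserine to integrins, was at 87.6, 85 and 101 CPM against 56, 68.1 and 52.5 CPM (-0.62, SE 0.0994, edgeR adjusted p = 0.00484). Both separated the genotypes at P22, as did 15.0% of all genes with every homozygous pool above and 18.8% with every one below.

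Among 9 genes that set phosphatidylserine exposure, scramblases and flippases, 8 were tested at P22 and only the flippase *Atp11a* passed, at 156 to 169 CPM against 174 to 222 CPM (0.32, SE 0.0826, edgeR adjusted p = 0.0312). Among 14 genes of uptake signalling and corpse lipid handling, the ELMO/DOCK pathway's upstream GTPase *Rhog* alone passed, at 30.1 to 34.2 CPM against 35.4 to 40.9 CPM (0.31, SE 0.0821, edgeR adjusted p = 0.0344). The medians of these lists were 0.00 and -0.06. In the P7 count libraries 0 members of any of the 4 lists passed in edgeR. In P7 replicates 1 to 4, the long-transcript genes *Thbs1* (0.43) and *Thbs2* (0.42), thrombospondins that bridge to CD36 and integrins, passed as higher. So did *Dock1* (0.35) and *Trio* (0.30), exchange factors for Rac. The opsonin *C1qa* (-0.33), also a macrophage marker here and with a transcript of 1040 nt, passed as lower. The limma adjusted p of these genes was 0.0448 to 0.0474. Of all genes in replicates 1 to 4, 4.23% passed as higher and 3.28% as lower. With both batches together 0 passed in limma.

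With age, 9 of 16 tested other receptors were lower at P22 in heterozygotes and 1 was higher, and 6 and 1 in homozygotes. These counts, and those of the lists that follow, stand against the 34.6% of all genes that were higher and 38.2% lower in heterozygotes, and 35.0% and 36.8% in homozygotes. *Cd36* (-2.64 and -2.32), the scavenger receptor for oxidised lipid and thrombospondin, and the integrin subunit *Itgb3* (-2.67 and -2.18) passed in both genotypes, as did *Ager* (-2.27 and -2.38), while *Timd4* had 0 to 3 counts in each P22 library, so its fold is not given. Of the 13 other bridging molecules, 8 were lower and 3 higher in heterozygotes, and 7 and 3 in homozygotes, led by *Thbs1* (-2.51 and -2.45), the low-count *Tulp1* (-2.71 and -2.24), *Anxa1* (-2.02 and -1.60) and *Lgals3* (1.52 and 2.25). Phosphatidylserine exposure genes were 3 higher and 5 lower of 8 in heterozygotes and 2 and 4 in homozygotes. *Tmem30a*, the subunit that flippases need, rose (1.14 and 1.09), as did the flippase *Atp8a1* (0.59 and 0.57), and the scramblase *Xkr4* fell (-0.95 and -1.48), while *Plscr1* was at -0.82 in heterozygotes. In the signalling and lipid handling list 7 were higher and 4 lower of 14 in heterozygotes, and 6 and 4 in homozygotes. Its transporters moved in opposite directions, *Abca7* up (1.97 and 1.78) and *Abca1* down (-1.52 and -1.39), and the liver X receptor *Nr1h3* rose (1.72 and 1.94).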

How the data were processed

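RNA from pools of 4 mice was poly A enriched and sequenced as paired-end reads by the authors, who ran the nf-core RNA pipeline (STAR and Salmon, mm10; versions, annotation release and strand setting are not given in the sources used here). Their deposited tables hold estimated counts per gene for P22 and for P7 replicates 5 to 7. For P7 replicates 1 to 4 the authors deposited whole numbers that sum to 999644 to 999777 per library, handled here as a score, TPM rounded by the authors. The labels give P7 batches of 3 and 4 replicates and a P22 batch of 3 per genotype; no label ties a P7 replicate to a batch, and the P7 tables, of 4 and 3, were taken as the batches.

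Estimated counts were rounded and tested with edgeR 4.0.16 (filterByExpr, TMM, quasi-likelihood F test) in R 4.3.3, rounded TPM with limma 3.58.1 (trend) on log2(TPM + 1) after TMM where the mean TPM reached 5, and both P7 batches with limma and a batch term. The 12 libraries in counts were joined in 1 edgeR fit for age and its interaction with genotype; printed CPM come from the TMM scale of that fit. P-values were adjusted by Benjamini-Hochberg over all genes tested, intervals are 95%, and DESeq2 1.42.0 was an alternative. Fold changes on the log2(TPM + 1) scale understate low genes. Transcript lengths came from GENCODE M21 (GRCm38) and promoters from RefSeq (GRCm38.p6; 9 of 10 members matched). Exons of *Gas6* and *Stab1* overlap a gene on the opposite strand over 1.33% and 1.09% of their length, and the other members overlap none. Scripts were tested on simulated data.

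The members and lists were chosen with earlier results of these data known. Named genes were all members, *Adgrb1* and other pathway genes past the test in a genotype comparison (at most 4 per list). At most 3 per list with the largest age change among those past the test were added. Age values of these are given for both genotypes, except *Plscr1* (heterozygotes only) and *Timd4* (neither). *Cx3cr1* was named after its value was seen. Replicates are pools, and p-values measure the spread between pools of this one experiment. The main tests did not treat pools as paired by replicate number, and these values cannot settle whether they were. Deviations of same-numbered pools correlated at 0 to 0.06 at P22, -0.05 to 0.07 in the P7 counts and -0.23 to -0.01 in replicates 1 to 4.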

Additional observations from a re-analysis of the deposited data

How the results depend on the processing

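The number of members past the test depended on the setting at P22 and in P7 replicates 1 to 4, and on none of the settings tried in the other comparisons beyond 1.5 times. At P22 it was 2, and became 4 with library totals in place of TMM (1235 genes higher and 726 lower in place of 779 and 1125, median shift 0.08), 9 with neuron marker scaling (11536 and 75, median shift 0.46), 0 without the neutrophil gene pools, and 0 to 2 without each pool in turn. In P7 replicates 1 to 4 it was 1, and became 2 without TMM, 0 with no filter on low values, 0 with the length trend removed, 0 with the replicate number as a block, and 0 to 3 without each pool. The block left 2 members at P22, 0 in the P7 counts, 0 in both batches and 0 in the interaction. Whether the numbers pair the pools is not known. Settings for the pools with brain neuron or neutrophil genes and for the length trend were chosen after seeing the data, and each setting without the brain or neutrophil gene pools leaves 1 homozygous pool in an arm, assumed to vary like the other groups. The causes of these changes were not tested.

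Signs turned under these settings, each for a value that had not passed except *Gas6* at P22 (0.18 with neuron marker scaling) and *Tyro3* with age in homozygotes. In the P7 counts *Axl* was 0.01 with library totals, and with neuron marker scaling (median shift 0.34) *Axl* was 0.31, *Gas6* 0.11, *Pros1* 0.23, *Gulp1* 0.10 and *Megf10* 0.21. *Mfge8* was 0.00 with no filter and 0.00 with the block, *Lrp1* -0.01 with the block, and without the brain gene pools *Mfge8* was -0.23 and *Megf10* 0.04. In P7 replicates 1 to 4 without TMM *Mertk* was 0.04, *Mfge8* 0.07 and *Stab1* 0.04, and with the length trend removed *Mfge8* was 0.02. Without the brain gene pools the age change in homozygotes was 0.03 for *Tyro3*, -0.17 for *Gulp1* and -0.07 for *Megf10*, and the interaction was -0.16 for *Stab1* and -0.23 for *Lrp1*. Without the neutrophil gene pools *Mertk* was -0.11 and *Lrp1* -0.07 at P22.

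Leaving out each pool in turn also turned signs near 0. At P22 *Mertk* ran from -0.11 to 0.45 and *Pros1* from 0.00 to 0.07. In the P7 counts *Mfge8* ran from -0.08 to 0.10, *Stab1* from -0.12 to 0.28 and *Lrp1* from -0.19 to 0.14, and in P7 replicates 1 to 4 *Stab1* from -0.17 to 0.02. With both batches *Mertk* ran from -0.01 to 0.08, *Gas6* from -0.11 to 0.01, *Pros1* from -0.03 to 0.07, *Mfge8* from -0.06 to 0.01 and *Stab1* from -0.09 to 0.06. For age, *Mertk* ran from -0.16 to 0.32 in heterozygotes and from -0.12 to 0.26 in homozygotes, where *Mfge8* ran from -0.04 to 0.17, *Gulp1* from -0.13 to 0.18, *Megf10* from -0.05 to 0.20 and *Lrp1* from -0.13 to 0.16. The interaction ran from -0.27 to 0.30 for *Mertk*, -0.03 to 0.17 for *Tyro3*, -0.15 to 0.18 for *Gas6*, -0.01 to 0.35 for *Stab1* and -0.05 to 0.25 for *Lrp1*. The age changes of *Gas6* (2.09 to 2.42), *Axl* (-1.47 to -1.14), *Stab1* (-1.80 to -1.37) and *Pros1* (-0.65 to -0.28) kept their direction and passed without each pool in both genotypes.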

Other observations

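For each member, the 3 genes whose level followed it most closely were taken from 11707 genes over all 20 libraries. Each gene was first centred within its age, unit and genotype. The correlations are a description, and pools share dissection and depth. As the genes were chosen for following the member in these libraries, high or low pools shared within a group come with the choice. *Gulp1* was closest to *Cdh19* (r = 0.97) and *Aspa* (0.92). In the P7 count pools *Cdh19* was lowest in homozygous replicate 6 (4.17 CPM) and highest in heterozygous replicate 6 (15 CPM), the same 2 pools as for *Gulp1*. *Gas6* was closest to *Map6* (0.92) and *Kif5a* (0.90), and *Map6* was at 228 to 247 CPM in heterozygous and 171 to 195 CPM in homozygous P22 pools, without overlap, as *Gas6* was.

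*Mertk* was closest to *Fkbp5* (0.89), *Herc4* (0.86) and *Anapc4* (0.84). *Fkbp5* was at 24.8, 17.4 and 72.1 CPM in heterozygous P22 pools and at 102, 28 and 23.7 CPM in homozygous ones, so that its high pools, heterozygous replicate 3 and homozygous replicate 1, were those of *Mertk*. In the P7 count pools *Fkbp5* lay between 14.2 and 19.1 CPM. *Axl* was closest to *Tram2* (0.88), *Tyro3* to *Tshz1* (0.85), *Pros1* to *Cpne6* (0.90), *Mfge8* to *Galnt18* (0.87), *Stab1* to *Asgr1* (0.88), *Megf10* to *Ston1* (0.91) and *Lrp1* to *Prr12* (0.90).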
